A study of Drosophila melanogaster with 12 samples.

Results

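The euchromatic underreplicated (UR) regions of chromosome arm 2L were taken as runs of windows starting before 21200000 whose mean smoothed replication timing (RT) score in the 2 wild-type salivary gland libraries lay under -2.85. A window holds 1000 uniquely alignable bp. Of 19464 windows with a score in both libraries, 1877 (9.64%) met this rule, and they formed 9 regions of the 51 such runs found over all chromosomes without the start limit. The members were chosen by the wild-type salivary gland scores, so those scores, and every difference from them, are given as a description. The member window nearest the threshold stood at -2.8502 and the nearest window outside it at -2.8492. No further run appeared with the threshold raised by 0.5, and the lowest of the separate runs reached with it raised by 1.5 started at 10558000 (lowest score -2.23).

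RT was inferred from whole-genome sequencing of bulk DNA in 12 libraries, 2 in each of 6 groups. All were from female Drosophila melanogaster. Salivary glands were dissected from about 20 third-instar larvae before wandering per genotype, in Oregon-R (wild type), in SuUR (the SuUR ES allele) and in Rif1 1/Rif1 2 (the Rif1 mutant). The paper lists both mutants with w118, and the wild type as Oregon-R. Strain background and mutation therefore differ together in each comparison of a mutant with the wild type. The fat bodies came from 25 Oregon-R larvae per replicate at 96 hours after egg laying. The follicle cells came from about 200 pairs of ovaries of Oregon-R adults kept 2 days on wet yeast, and the wing discs from Yellow-white third-instar larvae. In both of the last groups nuclei were sorted for S phase, whereas the gland and fat body profiles came from unsorted tissue. The score of gland and fat body, rawRT before smoothing, is in SD units of the fully replicated arms. It is low where DNA is late replicating or present in fewer copies. The follicle cell and wing disc values are from earlier published profiles by the G1/S method, and their scores were scaled in another way. In bulk DNA, fewer copies in every nucleus and no copies in some nuclei cannot be told apart.

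Drosophila salivary gland nuclei become polytene by repeated endocycles, in which DNA is replicated without division. Some late-replicating stretches are not fully copied in these cycles and stay at lower copy number than the rest of the arm. SuUR, a chromatin protein with an SNF2-like domain, slows replication forks there, and Rif1, a conserved regulator of replication timing that binds protein phosphatase 1, acts with it. The fat body is also polyploid, while the paper refers to the tissues profiled by the G1/S method as diploid.

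The sequences below come from low-scoring windows of the regions, in the plus strand of Release 6 (dm6), with every run of at least 8 bases made only of A and T in capitals. Each is 200 bases from the middle of the window with the lowest wild-type mean in its region, in the 3 regions that reached the lowest scores and in 32F-33A as a shallower one, and the last is from the middle of a stretch in 34A described further on. Window starts are given to 5 significant digits in the tables, so a window's place is known only to that precision. The first, the fourth and the last overlap no exon and no protein-coding gene, the second lies in a coding exon of CadN and the third in an intron of beat-Ia.
36B-C, chr2L:17128400-17128599, plus strand: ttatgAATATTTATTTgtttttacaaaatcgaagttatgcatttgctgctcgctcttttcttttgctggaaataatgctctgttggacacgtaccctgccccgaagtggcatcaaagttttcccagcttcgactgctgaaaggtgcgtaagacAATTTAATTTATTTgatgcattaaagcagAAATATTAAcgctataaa
36C-E, CadN, chr2L:17714400-17714599, plus strand: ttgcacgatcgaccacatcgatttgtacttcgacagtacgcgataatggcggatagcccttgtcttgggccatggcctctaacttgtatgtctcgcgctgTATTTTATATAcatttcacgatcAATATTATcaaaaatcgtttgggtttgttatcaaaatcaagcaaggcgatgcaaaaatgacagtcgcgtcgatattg
35D-E, beat-Ia, chr2L:16051400-16051599, plus strand: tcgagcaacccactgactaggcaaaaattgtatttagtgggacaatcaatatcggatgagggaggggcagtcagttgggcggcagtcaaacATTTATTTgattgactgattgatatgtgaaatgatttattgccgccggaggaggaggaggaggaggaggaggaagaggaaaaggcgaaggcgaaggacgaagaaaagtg
32F-33A, chr2L:11667400-11667599, plus strand: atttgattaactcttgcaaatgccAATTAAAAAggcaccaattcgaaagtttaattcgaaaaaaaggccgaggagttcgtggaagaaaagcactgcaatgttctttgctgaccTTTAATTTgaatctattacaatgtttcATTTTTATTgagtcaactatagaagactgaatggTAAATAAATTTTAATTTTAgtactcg
34A stretch, chr2L:12882400-12882599, plus strand: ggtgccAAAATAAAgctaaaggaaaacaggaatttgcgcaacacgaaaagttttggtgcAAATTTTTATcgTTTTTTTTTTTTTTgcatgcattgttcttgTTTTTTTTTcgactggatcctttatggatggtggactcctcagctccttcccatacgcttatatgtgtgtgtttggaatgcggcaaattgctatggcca
The wild-type scores of these windows were -6.63 and -8.07 in 36B-C, -6.63 and -8.09 in 36C-E and -6.26 and -7.85 in 35D-E, against -4.65 and -5.38 in 32F-33A. In the Rif1 mutant the same windows had mean scores of -0.35, -0.67, -0.50 and -0.21. The 5 sequences held 3, 2, 1, 4 and 4 A and T runs at a GC content of 36%, 42%, 47.5%, 31% and 38.5%. Such a run is common: 71.5% of all 200-base pieces of 2L below the start limit held at least 1.

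The 9 regions are named by their cytological bands. From distal to proximal they are 25A (chr2L:4669400-4730400), 32F-33A (chr2L:11596000-11738000), 34A (chr2L:12822000-12920000), 35B (chr2L:14723000-14952000), 35D distal (chr2L:15356000-15653000), 35D proximal (chr2L:15786000-15861000), 35D-E (chr2L:15945000-16208000), 36B-C (chr2L:16947000-17334000) and 36C-E (chr2L:17539000-17975000). They spanned 1988 kb in all, from 61 kb in 25A to 436 kb in 36C-E, with a median of 229 kb. The 6 regions from 35B onward lay close together, and no window between the proximal end of 36C-E and the start limit qualified. The proximal end of 35D distal is not a measured border, since the next window spans 75 kb (chr2L:15653000-15728000) and had no score. Inside the regions 23 windows had no wild-type score and were stepped over. When such a window ended a run, the same windows fell into 32 runs.

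Depth differed among the regions in the wild-type gland in the same way in both libraries, although replicate 2 was lower throughout. The lowest region means were in 36B-C (-5.63 and -6.80), 36C-E (-5.43 and -6.71), 35D-E (-5.13 and -6.30) and 35B (-4.99 and -6.13). The shallowest were 25A (-2.82 and -3.70) and 35D distal (-2.91 and -3.77). Between them lay 35D proximal (-3.54 and -4.15), 32F-33A (-3.56 and -4.67) and 34A (-3.82 and -4.74). The score climbed over many windows at the borders. Averaged over the 18 edges, it stood at -4.30 in the windows 21 to 30 inside the edge and at -2.55 in the 10 windows from the edge outward. In the windows 60 to 69 away, where 16 edges had values, it stood at -0.35.

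**Figure D1:**
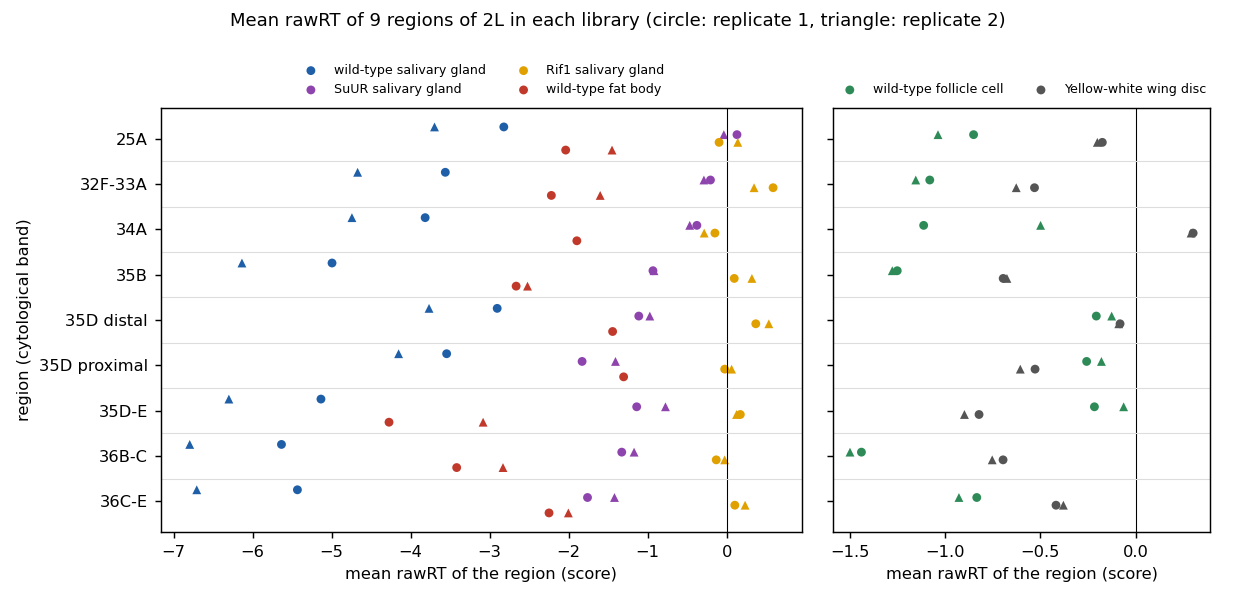
Mean rawRT of each of the 9 regions (rows) on the score axis in each library, with replicate 1 as a circle and replicate 2 as a triangle; the left panel holds the salivary gland and fat body libraries, the right panel the follicle cell and wing disc libraries on an axis of their own, since their scores have a smaller spread. The wild-type gland lies between -6.80 and -2.82, the Rif1 mutant between -0.29 and 0.59; a fat body library is shown only where at least 0.5 of the windows had a score.

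**Figure D2:**
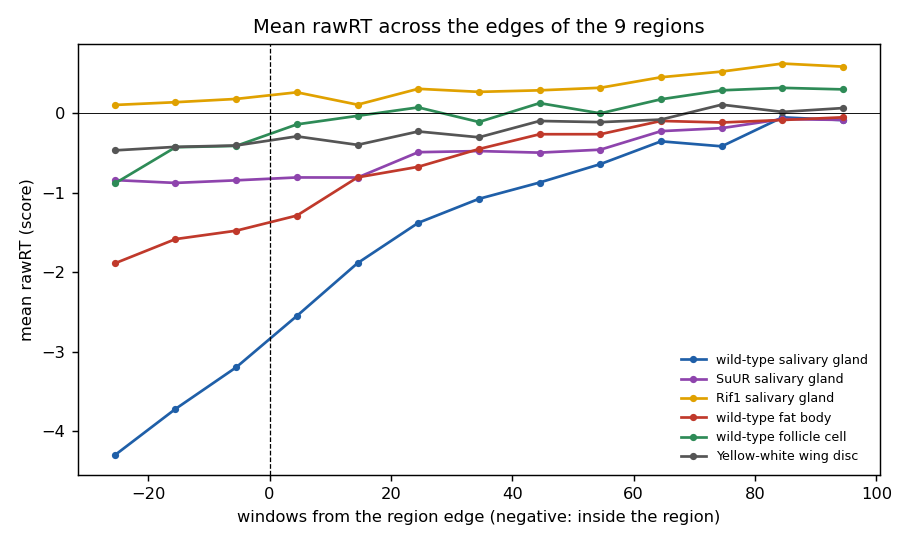
Mean rawRT by group (lines) in steps of 10 windows across the edges of the regions, with negative positions inside; windows of a neighbouring region were left out. The wild-type gland rises from -4.30 inside (18 edges) to -0.09 at 90 to 99 windows outside (14 edges), whereas the SuUR mutant moves from -0.84 to -0.08.

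The 34A region stood apart from the other 8 and owed its place to a single stretch. In 37 kb (chr2L:12864000-12901000, 36 windows, no annotated gene) the wild-type gland scores were -6.82 with an SD over windows of 0.04 in replicate 1, and -8.36 with an SD of 0.05 in replicate 2. The stretch itself reached the lowest scores of 2L below the start limit, -6.91 and -8.42. Only 5 other windows of 2L came within 0.3 of the stretch mean, none of them adjacent to another. The fat body had no score in any of these windows in either library. Follicle cells, the third tissue from Oregon-R, had -3.93 and -2.88. The other libraries, whose labels give other genotypes, were close to 0: the SuUR gland had -0.12 and -0.41, the Rif1 gland -0.15 and -0.20, and the wing disc 0.43 and 0.22. Strain and score moved together here, and the part of the strain in the low scores was not tested.

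Outside the stretch the other windows of the 34A region had wild-type scores of -2.00 and -2.56, above the threshold of the rule. With a running median of rawRT in place of the smoothed score, 39.8% of the 34A windows stayed under the threshold, against 84.3% to 100% in the other regions. The data thus go against calling the whole of 34A underreplicated by this rule, and its own differences in the 2 tests are given with and without the stretch, as are median differences from the wild type with and without the region. The annotated protein-coding genes that lie mostly in this region are ACXC and ACXB, members of a family of adenylyl cyclases, and both lie outside the stretch. Their wild-type scores were -2.08 and -2.10 for ACXC and -2.38 and -2.32 for ACXB.

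**Figure D3:**
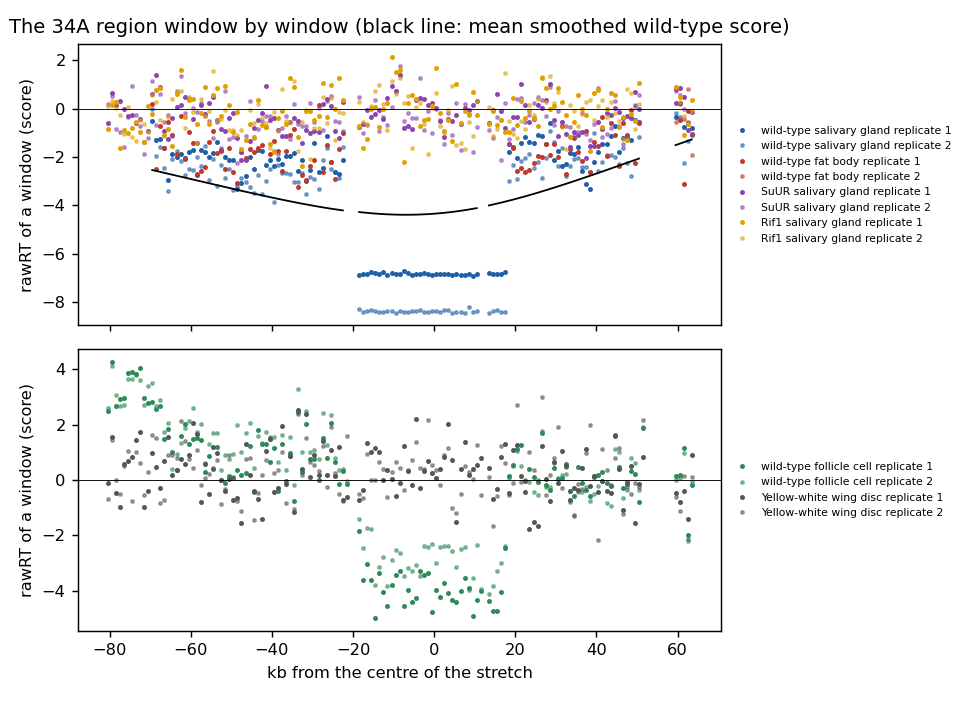
rawRT of single windows (points, coloured by library) against the distance in kb from the centre of the 34A stretch; the upper panel holds the salivary gland and fat body libraries and the mean smoothed wild-type score (black line), the lower panel follicle cells and wing discs. Both wild-type gland libraries form flat lines at -6.82 and -8.36 within the stretch, where the SuUR and Rif1 libraries scatter around 0.

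The stretch also gave a common yardstick, since the scores of replicate 2 were stretched relative to replicate 1. Values were expressed as the percentage of the way from the score of the stretch to 0, on the assumption that the stretch marks a floor of the score. The 2 wild-type libraries then gave nearly the same value in the deep regions and differed more in some of the others. The values were 17.4% and 18.7% in 36B-C, 20.4% and 19.8% in 36C-E, 24.7% in both libraries in 35D-E and 26.8% and 26.6% in 35B. At the other end they were 57.4% and 54.9% in 35D distal and 58.6% and 55.8% in 25A. Between these, 32F-33A had 47.8% and 44.1% and 35D proximal 48.0% and 50.3%, so the libraries differed in opposite directions. The percentage is of the score and is not a DNA copy number.

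In the SuUR mutant all 9 regions rose above the wild type in the sense that both SuUR libraries lay above both wild-type libraries, but the proximal ones stayed low relative to the rest of the genome. The median difference from the wild type was 3.87 over the regions and 4.17 without 34A. Both SuUR libraries also lay above both wild-type libraries in 29.7% of all features, the 9 regions and the bins of up to 50 windows that cover the remaining arms. Nothing is read from the count because the rule fixed it. A rank among all features of the same library does not depend on the scale of the score, and by it the regions fell into 2 kinds.

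The 3 distal regions ranked inside the bulk of the genome in the SuUR gland. The 25A region had scores of 0.13 and -0.04, at percentiles 65.4 and 57.3, the 32F-33A region had -0.21 and -0.29, at percentiles 43.6 and 41.0, and 34A had -0.38 and -0.47, at percentiles 33.4 and 29.4. The 6 proximal regions stayed between percentiles 7.2 and 14.4 in both libraries. The lowest were 35D proximal at -1.83 and -1.41 and 36C-E at -1.76 and -1.42, followed by 36B-C at -1.33 and -1.17, 35D distal at -1.11 and -0.97, 35D-E at -1.14 and -0.78 and 35B at -0.93 and -0.92. The range of 35D-E overlaps those of 35D distal and 35B. Over the 9 regions the SuUR score fell with position along the arm from the distal end (Pearson's r -0.88, Spearman's rho -0.87), a description over regions that share their libraries. The wild-type score had r -0.64 and rho -0.73 with position, and wild-type and SuUR scores had rho 0.40 with each other.

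Below a level 1 SD under the mean smoothed score of the arms, which was -1.60 in the SuUR gland, lay 50.4% of the windows of 36C-E, 4.63% of 35D distal and none of the other 7 regions. Here and in the other groups this mean and SD were taken over all windows of the 5 arms, proximal heterochromatin included. The lowest smoothed scores of 36B-C (-1.54) and 35D proximal (-1.52) stayed just above the level, although the rawRT of 35D proximal averaged -1.83 and -1.41. Within 36C-E, CadN, which encodes N-cadherin, had SuUR scores of -1.91 and -1.42, and its neighbour CadN2 had -2.19 and -2.00. The gene t-Grip91, a testis form of a gamma-tubulin ring protein at the distal border of 35D proximal, had -2.99 and -2.01 over 7 windows. In the wild type t-Grip91 stood at -4.11 and -3.58.

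In the Rif1 mutant every region ranked within the bulk of the genome. The Rif1 gene served as a check on the labels: 4 of its 6 windows had no score in both Rif1 libraries, while all 6 had a score in each of the other 10 libraries. The 6 windows of the SuUR gene had a score in every library, so copy number does not check that label. Region scores lay between -0.29 and 0.59, at percentiles 34.6 to 90.7, and no window of any region fell under the level 1 SD below the arm mean of that genotype. Both Rif1 libraries lay above both wild-type libraries in 9 of 9 regions, and in 41.9% of all features, with a median difference of 4.58, or 5.18 without 34A. The highest scores were in 32F-33A (0.59 and 0.34) and 35D distal (0.37 and 0.53), and the lowest in 34A (-0.15 and -0.29) and 36B-C (-0.13 and -0.03). The SuUR and Rif1 differences from the wild type share the wild-type libraries. The order of the regions in the Rif1 gland was unlike that in the wild type (rho 0.20, 9 regions).

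The rule used neither mutant, so it did not fix the difference between them. The estimate of spread in the fit did include the wild-type libraries that the rule used. In the Rif1 mutant 4 of 9 regions were higher than in the SuUR mutant and none was lower (limma over 2303 features and the 6 salivary gland libraries, Benjamini-Hochberg adjusted p below 0.05), where 23.1% of all features were called (15.9% were called higher and 7.25% lower). The regions' median difference was 1.13, against a median of 0.07 over the features outside them. Both Rif1 libraries lay above both SuUR libraries in 8 of 9 regions, and in 39.1% of all features.

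All 4 called regions lie in bands 35D to 36E. In 36C-E the score was -1.59 in the SuUR and 0.17 in the Rif1 mutant, a difference of 1.76 ± 0.38 (SE, adjusted p = 0.0205, limma). In 35D proximal it was -1.62 and 0.02, a difference of 1.64 ± 0.24 (adjusted p = 0.00598, limma). In 35D distal, which holds sna and wor, the difference was 1.49 ± 0.27 (adjusted p = 0.0124, limma). In 36B-C, with the beat-III cluster, it was 1.17 ± 0.34 (adjusted p = 0.0487, limma), and this call was lost with median centring (adjusted p = 0.0681, limma) and with no minimum of scored windows (adjusted p = 0.0508, limma). In each of these regions both Rif1 libraries lay above both SuUR libraries.

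The neighbouring regions 35B and 35D-E had differences of about the same size as 36B-C and missed the threshold. They were 1.13 (95% interval 0.33 to 1.93, adjusted p = 0.0517, limma) and 1.11 (0.27 to 1.94, adjusted p = 0.0647, limma). With the replicate number as a block both passed (adjusted p = 0.033 and 0.0426, limma). In 32F-33A the difference was 0.71 (-0.07 to 1.5) and in 34A 0.21 (-0.47 to 0.88), or 0.28 without the stretch. In 25A the mutants had nearly the same score, with a difference of -0.03 (-0.69 to 0.64). Calls depended on which libraries shared the estimate of spread. With the 4 mutant libraries alone 7 regions passed, the SE of 36C-E falling from 0.38 to 0.19, and without Rif1 replicate 1 none passed, although all 4 differences stayed positive.

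**Figure D4:**
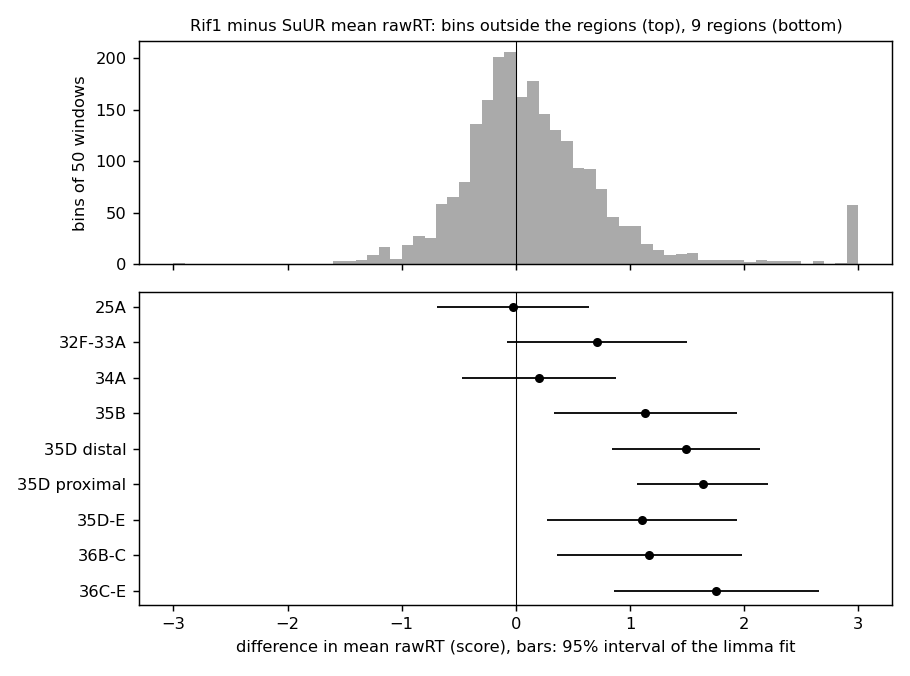
Difference in mean rawRT, Rif1 minus SuUR (score): the histogram counts 2294 bins of up to 50 windows outside the regions, of which 56 over 3 and 1 under -3 are drawn at the ends, and the points show the 9 regions with 95% intervals of the limma fit. The intervals of 35B and of the 5 regions proximal to it lie above 0, while those of 25A, 32F-33A and 34A include 0.

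Most of the regions that were deep in the gland were also low in the fat body. The rule made every member window low in the gland. It therefore favoured a smaller depth and a shorter low part in any other tissue, and nothing is read from these. Region scores lay between percentiles 4.3 and 12.3 of the fat body libraries wherever a score could be formed. The deepest was 35D-E at -4.27 and -3.08, then 36B-C at -3.42 and -2.83, 35B at -2.67 and -2.52 and 36C-E at -2.25 and -2.00. The distal regions were at -2.22 and -1.60 in 32F-33A and -2.04 and -1.45 in 25A. In the 6 regions where both libraries had a score in at least 0.5 of the windows, both fat body libraries lay above both wild-type gland libraries, as they did in 39.6% of all features, and the median difference was 2.38 over 9 regions with the available windows. That median is the value of 34A itself, where a single fat body library without a score in the stretch is set against a gland mean that includes it, and without 34A it was 2.37. Outside the stretch 34A stood at -1.90 in fat body replicate 1 and at -2.00 and -2.56 in the gland. The order of the regions was closest to that of the wild-type gland of all groups (rho 0.85 over 9 regions). In this order 34A and 35D proximal rest on fat body replicate 1 alone, and replicate 2 covered 37.0% of the windows of 35D distal. The gland value of 34A includes the stretch. A level 1 SD under the mean of the fat body arms (-1.93) took in 89.5% of the windows of 35D-E, 69.3% of 36B-C, 66.5% of 35B and 57% of 36C-E, and none of 25A, 34A or 35D proximal.

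Scores were missing unevenly in the fat body. Replicate 2 had no score in 34A and 35D proximal and in most of 35D distal, where it covered 37.0% of the windows. Replicate 1 was at -0.84 on average in the 492 member windows that replicate 2 lacked and at -3.27 in the 1349 windows that both covered. A mean over replicate 2 therefore describes mainly windows that were low in replicate 1, and the profile along each region is given from replicate 1 with replicate 2 where it has a score. Whether the removal of outlier windows in the deposited scores set this pattern was not tested.

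Several regions, each a single run in the gland by the rule, were low in the fat body over part of their length. The places were found at the largest change of fat body replicate 1 between adjacent blocks of 30 windows, after its values were seen, and carry no test. In 35B the first 59 kb had a fat body score of -0.10, and the rest -3.46 and -2.52, although the wild-type gland was at -4.64 and -5.58 in the first part and at -5.10 and -6.30 in the second. In 36C-E the first 84 kb were at -0.31 and the rest at -2.73 and -2.00, with the gland at -4.78 and -5.95 and then at -5.60 and -6.90. In these regions the fat body trough covered the proximal side only.

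The reverse held in 35D distal and 36B-C, where the fat body was low on the distal side. The first 130 kb of 35D distal were at -2.72 and -2.18 in the fat body, against -2.84 and -3.83 in the gland, and the rest was at -0.47 in replicate 1, while the gland stayed at -2.95 and -3.72. Of the snail family, sna and wor lie in the distal part: wor, a zinc-finger transcription factor of the neuroblast, had fat body scores of -3.02 and -2.61, and sna, the mesodermal repressor Snail, had -1.48 in replicate 1. In the proximal part kek3, which encodes a kekkon transmembrane protein with leucine-rich repeats, had -0.76 in replicate 1 against -3.54 and -4.43 in the gland.

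The step in 36B-C fell inside the beat-III cluster, whose genes encode immunoglobulin-family proteins of the beaten path type that act in axon guidance. The first 232 kb were at -4.50 and -3.57 in the fat body and the remaining part at -1.81 and -1.74, in both libraries. On the distal side beat-IIIb had -4.44 and -3.48 and beat-IIIa had -3.81 and -3.17, while beat-IIIc beyond the step had -1.57 and -1.70. In the gland these genes were all low, at -5.19 and -6.22 for beat-IIIb, -6.31 and -7.68 for beat-IIIa and -5.85 and -6.96 for beat-IIIc. The gustatory receptor genes Gr36a, Gr36b and Gr36c sit next to the step, with fat body scores from -3.06 to -1.93.

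In 35D-E the fat body trough filled nearly the whole region. The beat-Ia gene had -5.65 and -4.02 there, the lowest fat body scores of any gene named, and beat-Ic had -5.04 and -3.65. In the gland they had -6.12 and -7.53, and -5.84 and -7.13. For beat-Ia the fat body came closer to the gland than for CadN, where it was at -2.80 and -1.97 against -6.28 and -7.65.

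**Figure D5:**
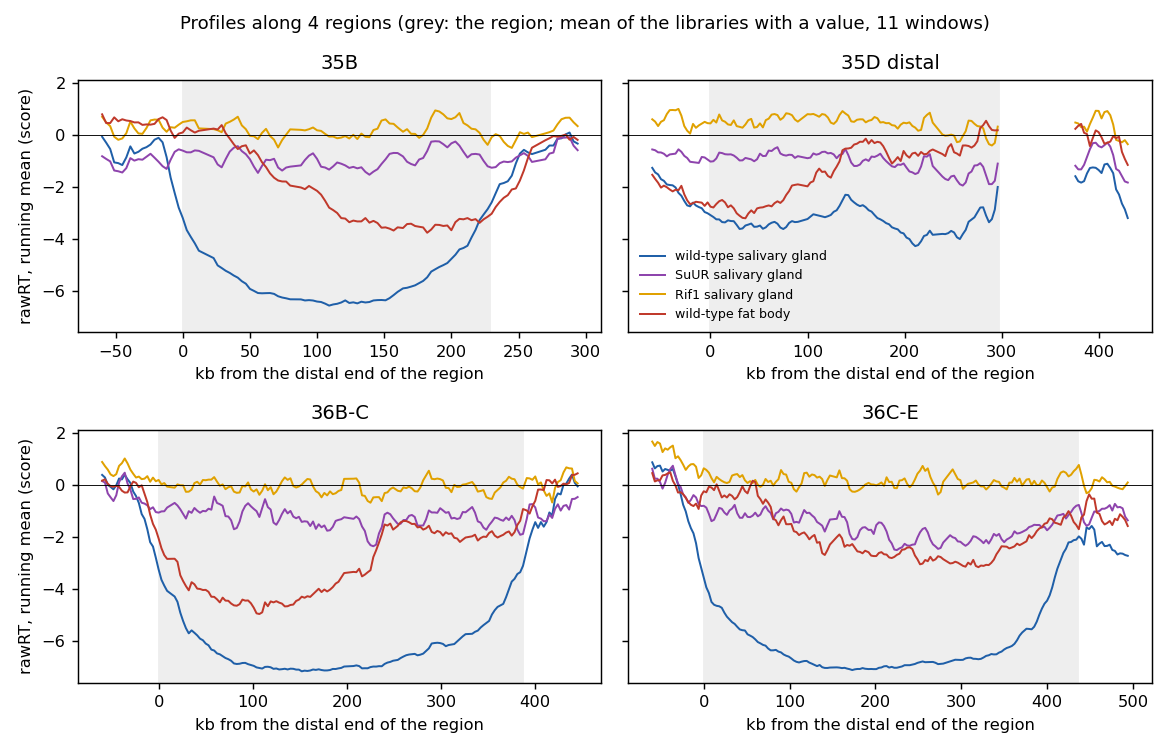
Running mean of rawRT over 11 windows (score) against the distance in kb from the distal end in 4 regions, with the region in grey and a line per group (mean of the libraries with a score); the lines break at a window of 75 kb without a score beside 35D distal. The fat body is low mainly on the proximal side of 35B and 36C-E and on the distal side of 35D distal and 36B-C, while the Rif1 line stays near 0 throughout.

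In follicle cells and wing discs some of the regions ranked among the lowest scores and others did not, and the low ones were not all the same in both tissues. Tissue, strain and library kit (NEBNext for follicle cells, Rubicon ThruPLEX for wing discs) differ together here and cannot be told apart. Scores of the 2 groups have a different spread from each other, with an SD over all features outside the regions of 0.70 in both follicle cell libraries and of 0.39 and 0.42 in the wing disc libraries. Over the 2L features outside the regions the SD was 0.40 and 0.46 in follicle cells and 0.31 and 0.32 in wing discs, a smaller gap. In follicle cells 36B-C was lowest (-1.44 and -1.50, percentiles 2.9 and 3.0), and 35B (-1.25 and -1.28), 32F-33A (-1.08 and -1.15), 25A (-0.85 and -1.04) and 36C-E (-0.83 and -0.93) also ranked at percentile 5.0 or below. The 34A region was at -1.11 and -0.50, at percentiles 3.8 and 11.5, and outside the stretch its windows stood at 0.58 and 0.91. The 3 regions from 35D to 35E ranked higher: 35D distal was at -0.21 and -0.13, 35D proximal at -0.26 and -0.18 and 35D-E at -0.22 and -0.06, between percentiles 21 and 42.9.

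Wing discs were lowest in 35D-E (-0.82 and -0.90, percentiles 5.1 and 5.4), a region that ranked at percentiles 24.3 and 42.9 in the 2 follicle cell libraries. Next came 36B-C (-0.70 and -0.75), 35B (-0.70 and -0.68), 35D proximal (-0.53 and -0.61) and 32F-33A (-0.53 and -0.63). The 36C-E region was at -0.42 and -0.38, 25A at -0.18 and -0.20 and 35D distal at -0.08 and -0.09. Only 34A was above 0 in the wing disc, at 0.30 and 0.29. The order of the regions in the wing disc had rho 0.73 with the fat body, whose means carry the limits given above, and 0.25 with the follicle cells.

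Between the tissues 8 of 9 regions differed (limma over 2350 features and 4 libraries, adjusted p below 0.05), a count to be read against 60.0% of all features called, 28.7% higher and 31.4% lower in follicle cells. Follicle cells were higher in 35D-E by 0.72 ± 0.09 (SE, adjusted p = 4.39e-07, limma) and in 35D proximal by 0.35 ± 0.09 (adjusted p = 0.00142, limma), although with the median of the windows the latter was 0.23 and missed the threshold (adjusted p = 0.0957, limma), and 6 regions passed. They were lower in 25A (difference -0.76), 36B-C (-0.74), 35B (-0.58), 32F-33A (-0.54) and 36C-E (-0.48). In 35D distal the difference was -0.08, with a 95% interval from -0.26 to 0.09. In 34A it was -1.10 with the stretch and 0.48 in the opposite direction without it (adjusted p = 0.000231, limma). When each library was divided by the SD of its features outside the regions on all arms, 4 regions passed: both regions that were higher in follicle cells remained higher, and 25A and 34A were lower.

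The regions were poor in genes, and several held a single very long one. RefSeq places 109 protein-coding genes with at least 0.5 of their length in them, 5.48 per 100 kb against 12.3 over the rest of 2L below the start limit. The median gene was shorter in the regions (1.42 kb) than elsewhere (2.11 kb). Genes of 30 kb or longer numbered 10 of 109, counting beat-IIIa and CG34106, which have the same coordinates, separately, and 105 of 2361 elsewhere. Density ranged from 2.04 per 100 kb in 34A and 2.98 in 36C-E to 10.5 in 35B. Pieces of 100 kb outside the regions held from 2 to 25 protein-coding genes between their 5th and 95th percentiles, with a median of 12. Every region lay below that median but within that range. In 36C-E, CadN (131.3 kb) and CadN2 (88.3 kb) covered much of the region, and CadN alone amounted to 30.1% of its length. The longest genes elsewhere were beat-IIIc (73.1 kb) in 36B-C, side-II (64.8 kb) in 35B, kek2 (44.9 kb) in 32F-33A, beat-Ic (41.4 kb) in 35D-E and kek3 (31.3 kb) in 35D distal. Side-II belongs to the sidestep family of immunoglobulin proteins, and kek2 encodes a kekkon protein.

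Of 15 genes for cell-surface adhesion proteins listed for 2L, 7 lay in the regions: CadN, CadN2, beat-Ia, beat-Ic, beat-IIIa, beat-IIIb and beat-IIIc. Of all 2470 protein-coding genes, 109 did (4.41%). The 7 come from 2 gene clusters of related copies and the CadN pair, so they are not separate draws, and the list was written with earlier results of these data known. Of the 3 snail family genes sna and wor were in 35D distal and esg was not. Among 38 chemoreceptor and odorant-binding genes 4 were members, the odorant receptor Or35a and the gustatory receptors Gr36a, Gr36b and Gr36c. None of the 16 ribosomal protein genes was, nor any of 39 genes picked by the symbol prefixes Acp, Sfp, Mst and lectin for seminal fluid and testis. That list misses testis genes with other symbols: t-Grip91 is a member, as are ProtA and ProtB in 35B, the sperm protamines, which were named after their position was seen.

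Among the other genes named by the rule, in 35B CG15279 stood near the bottom of the trough in the wild type (-5.86 and -7.03), while side-II crossed the proximal border and averaged -3.20 and -3.88. The gene lace, a serine palmitoyltransferase subunit of sphingolipid synthesis, was the shallowest of those in 35D distal at -2.36 and -2.85. Tektin-A, a protein of cilia and flagella, had -2.92 and -3.66 in 35D proximal. CG6614 in 32F-33A had -4.08 and -4.75, and kek2 at the border of that region -2.76 and -3.74.

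All 9 regions had a lower GC content and more A and T runs than the median 100-kb piece of the rest of the arm (42.4% and 8.61 per kb). GC content was 40.0% in the regions and 42.3% outside them, where 100-kb pieces ran from 39.5% to 45.4% between their 5th and 95th percentiles. Only 35D proximal (38.7%), 35D-E (39.1%) and 36B-C (39.4%) fell below that range. Runs of at least 8 A and T bases, which are in capitals in the sequences above, came at 10.9 per kb in the regions and 8.74 per kb outside. In 4 regions the density was past the 95th percentile of the 100-kb pieces (11 per kb), with 11.2 in 35B and in 36B-C, 11.4 in 35D-E and 11.5 in 35D proximal. The shallow 25A region had 8.77 per kb.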

How the data were processed

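Reads had been aligned by the authors with BWA 0.7.17 to dm6, counted in windows of 1000 uniquely alignable bp and adjusted for base composition. Outlier windows were then dropped by segmentation, with euchromatic UR regions handled apart from the arms. The deposited rawRT of gland and fat body is a score scaled to the fully replicated arms, and the deposited RT score is the same after spline smoothing. Follicle cell and wing disc scores come from earlier published G1/S profiles of sorted nuclei and have a smaller spread, so they were tested only against each other. The tables hold no read counts, so depth is unknown and no counting intervals are given. Precision rests on 2 libraries per group, which the study calls biological duplicates for gland and fat body.

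The smoothed scores chose the regions and gave the shares of windows under 1 SD, and rawRT gave the region and gene means. A region's mean was used where at least 0.5 of its windows had a score. Features were the 9 regions and bins of 50 other windows on 5 arms, where a shorter bin was kept if it had at least 25 windows. A feature needed a score in at least 0.5 of its windows in each library of a fit. They were tested with limma 3.58.1 (lmFit, eBayes, R 4.3.3) with Benjamini-Hochberg adjustment over all features, after a test on simulated data. Genes and bands came from RefSeq Release 6, whose 2L length (23513712) lies just beyond the last window. Members, gene lists and tests were chosen with earlier results of these data known. Genes were named by a rule: the 2 longest of each region described singly (not 25A) and the list members. Alternatives are described in the closing section. Those on missing windows and on the 34A stretch were added after seeing the data.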

Additional observations from a re-analysis of the deposited data

How the results depend on the processing

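The number of regions was 9 under the other settings for joining and thresholds, 10 with a running median and 32 where a window without a score ended a run. An equal count is not the same set. The lowest smoothed wild-type score of 25A was -3.18, so 25A is not a member at the lowered threshold of -3.35. Every region called between the mutants was higher in the Rif1 gland under every alternative tried. The count of 4 became 7 of 9 with scores divided by the SD outside the regions, with quantile normalization and with the 4 mutant libraries alone, 1 of 6 when the fat body libraries joined the fit, and 3 of 9 with median centring or with no minimum of scored windows. The call of 36B-C was lost in 7 of 17 alternatives. The count was 22 of 38 on a fixed grid of 50-window bins and 17 of 30 where missing windows ended a run. Leaving out a library gave 0 to 7: none without Rif1 replicate 1 (5 regions at an unadjusted p below 0.05), 1 without Rif1 replicate 2 or either SuUR library, and 7 without either wild-type library. Where a library was left out, the lone library of its group was taken to vary like the others.

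Between follicle cells and wing discs the count of 8 became 4 with SD scaling, 6 with the median of the windows, 34 of 38 on the grid and 26 of 30 with runs broken at missing windows, and the 34A difference reversed to 0.48 without the stretch. SD scaling changed the median differences from the wild-type gland to 1.94 for SuUR, 2.57 for Rif1 and 1.13 for fat body. Same-numbered libraries deviated together with r 0.22 between SuUR and Rif1, 0.39 and 0.22 between the wild type and each of them, and -0.02 between follicle cells and wing discs, and with 2 libraries a group the numbers are not shown to pair samples; with replicate number as a block, 6 and 8 regions were called, 35B and 35D-E being the 2 gained between the mutants. The cause of these changes was not tested. With 2 libraries a group and no read counts, small differences between regions cannot be resolved.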
